A study of Mus musculus with 46 samples.

Results

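Hmga1 and Hmga2 encode the HMGA proteins, and their rows were taken by name from the gene tables of a time course of ovulation, as 2 of 25147 genes. Hmga1 was chosen by its measured values, for its rise after human chorionic gonadotropin (hCG) and for its difference between the batches at 4 h, so both are given below as a description with no test. Each library was made from polyadenylated RNA of a single ovarian follicle, taken from outbred CD-1 mice. All follicles grew in alginate for 8 days in medium with follicle-stimulating hormone, were freed from the gel, and were then given maturation medium with 1.5 IU/ml hCG, which triggers ovulation through the receptor for luteinizing hormone, 10 ng/ml epidermal growth factor, 10 mIU/ml recombinant follicle-stimulating hormone and 10% serum. The groups were 9 follicles at 0 h (all batch 2), 13 at 1 h (10 of batch 1, 3 of batch 2), 13 at 4 h (10 of batch 1, 3 of batch 2) and 11 at 8 h (all batch 1). The labels list this medium for the 0 h follicles too, and these, at 0 h after hCG, are called before hCG here. The labels name no follicles held for the same times without hCG, and they do not tie follicles to animals, so a p-value here measures the spread between follicles.

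HMGA proteins are small, flexible chromatin proteins that hold the minor groove of A and T rich DNA with short motifs called AT hooks, bend it, and help transcription factors assemble on enhancers. They compete with linker histone H1 for DNA between nucleosomes. Both genes are abundant in embryos and in many tumors and low in most resting adult tissue, and Hmga2 is a classic target of let-7 microRNAs, which bind repeated sites in its 3′ untranslated region. In the follicle, granulosa cells around the oocyte answer the luteinizing hormone surge through cyclic AMP and epidermal growth factor signaling, and those next to the oocyte, the cumulus cells, make the matrix of the expanding cumulus.

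The shallowest library held 241442 counts and the deepest 5185044. The median depth was highest before hCG (3286107) and lowest 1 h later (730895), with 1432395 and 1755429 for the 4 h and 8 h groups. In batch 1 the 4 h follicles were all on plate 2 and the 1 h and 8 h follicles on plate 1, so 4 h and plate cannot be told apart there. A set of 3332 genes counted in batch 1 was at 0 throughout the 6 hCG-treated batch 2 follicles, and took 22.6% to 46.2% of the counts of the 0 h libraries. Neither member was among them. Each of 9 granulosa cell markers and 10 oocyte markers had counts at every time with the batches pooled. Summed medians were 14480 to 40980 CPM (counts scaled to library size, described with the processing) for granulosa and 15.8 to 27.7 CPM for oocyte markers. In whole follicles, fewer cells of a type and less RNA per cell cannot be told apart.

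In GENCODE M21 (GRCm38), Hmga1 lies at chr17:27556497-27563674 on the plus strand and Hmga2 at chr10:120361275-120476469 on the minus strand. The libraries are not stranded, so reads of a gene and of an antisense partner cannot be told apart. Hmga1 shares 22 bases with the antisense gene Gm49774 and 102 bases with AI413582, and Hmga2 holds 1700006J14Rik and 9230105E05Rik on its opposite strand and the microRNA gene Mir763 on its own. The nearest tested genes were Uqcc2 and Nudt3 around Hmga1, and Llph on the lower side of Hmga2. The stretches before the annotated starts of both members are shown because they differ in the short motifs searched for, as read from RefSeq's promoter table (GRCm38.p6). Capitals mark the core of a cyclic AMP response element, TGACG on the opposite strand, in the Hmga1 stretch at chr17:27556324-27556496 (plus strand). In the Hmga2 stretch at chr10:120476470-120476719 (minus strand) they mark a GC box, GGGCGG on the opposite strand.
Hmga1: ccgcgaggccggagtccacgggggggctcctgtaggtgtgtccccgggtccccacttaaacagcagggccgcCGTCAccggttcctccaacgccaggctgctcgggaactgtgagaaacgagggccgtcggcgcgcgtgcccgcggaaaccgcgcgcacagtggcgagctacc
Hmga2: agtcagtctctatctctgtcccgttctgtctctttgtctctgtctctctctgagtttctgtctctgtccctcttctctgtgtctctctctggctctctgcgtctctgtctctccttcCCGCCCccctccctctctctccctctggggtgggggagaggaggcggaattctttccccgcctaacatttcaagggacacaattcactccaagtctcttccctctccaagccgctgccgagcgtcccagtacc

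Over whole 300-base windows, searched on both strands, Hmga1 held the core TGACG in both of its 2 listed promoters, as did 20.8% of 32851 promoters. It also held 4 matches to the GC box, which 35.7% of promoters hold at least once. Hmga2 held 1 GC box and no TGACG, and 69.0% of its window was C or T, a higher share than in 99.6% of promoters. Neither member's window held the full element TGACGTCA (1.79% of promoters), the AP-1 motif TGANTCA (7.81%), the E-box CACGTG (7.15%) or the TATA motif TATAAA (13.6%). These are matches of letters in these windows and describe no binding.

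The next sequences are shown because the members differ in how many matches to them they hold. The 8 let-7 family members in the RefSeq table (GRCm38.p6) share 1 seed, bases 2 to 8, shown here in capitals for 3 of them. MicroRNAs were not measured in these libraries.
mmu-let-7a-5p: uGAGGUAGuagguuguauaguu
mmu-let-7e-5p: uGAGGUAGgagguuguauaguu
mmu-let-7g-5p: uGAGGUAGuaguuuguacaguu

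The complement of that seed, CTACCTC, occurred 4 times in the 3′ untranslated region of Hmga2 (3014 bases in the transcript read) and 1 time in that of Hmga1 (1183 bases). Among 2779 genes with a region at least as long as that of Hmga2, cut to its length, 17.4% held a match and 0.072% held as many. For Hmga1, 7.5% of 9105 such regions held a match. The matches are shown with the pairing bases in capitals, numbered from the stop codon onward.
Hmga2 site 1, chr10:120364224-120364246: gccgacattcaatttCTACCTCa
Hmga2 site 2, chr10:120362987-120363009: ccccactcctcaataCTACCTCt
Hmga2 site 3, chr10:120362549-120362571: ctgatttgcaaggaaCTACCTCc
Hmga2 site 4, chr10:120361691-120361713: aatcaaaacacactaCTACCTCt
Hmga1 site 1, chr17:27563277-27563299: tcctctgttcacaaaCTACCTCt

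Hmga1 was close to undetected before hCG, was counted in nearly every follicle at 1 h, and stood among the most abundant transcripts at 4 h and 8 h. At 0 h its 9 follicles held 49 counts in all, 3 of them none, with a lowest, median and highest level of 0, 1.47 and 5.28 CPM. A library at 0 could still hold up to 3 counts by chance, which equals 1.18 to 1.86 CPM in those 3 follicles, for counting error only. At 1 h the batch 1 follicles ran from 0 through a median of 15.7 to 26.1 CPM, and batch 2 replicates 11, 12 and 13 held 43.98, 27.7 and 32.2 CPM. The single follicle of the 1 h group with no count, batch 1 replicate 10, was a shallow library of 316331 counts, in which 3 counts equal 10.1 CPM.

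At 4 h the 10 follicles of batch 1 held from 1078 through a median of 1850 to 2157 CPM. Batch 2 replicates 11, 12 and 13 held 815.9, 223.5 and 358.0 CPM, all below the lowest of batch 1. At 8 h the 11 follicles, all of batch 1, ran from 582.6 through 938.4 to 1324 CPM. No follicle at 4 h or 8 h overlapped with any at 0 h or 1 h, while the 4 h and 8 h ranges overlapped. Hmga1 was chosen for this rise, and the share of all genes whose ranges part between times was not computed, so nothing is read from it. Ordered by mean CPM the groups were 0 h (2.06 ± 2.10, SD, n = 9), 1 h batch 1 (15.3 ± 8.83, n = 10), 1 h batch 2 (34.6 ± 8.41, n = 3), 4 h batch 2 (465.8 ± 310.6, n = 3), 8 h (927.1 ± 264.6, n = 11) and 4 h batch 1 (1755 ± 333.8, n = 10). Neighbors whose ranges overlapped were 0 h with 1 h batch 1, 4 h batch 2 with 8 h, and 8 h with 4 h batch 1.

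Markers of cell types moved over the same times. Summed granulosa markers had medians of 40980, 32180, 27590 and 14480 CPM from 0 h to 8 h. Of 8 tested, 6 were lower at 4 h and 8 at 8 h against 0 h (edgeR), where 32.2% and 27.6% of all tested genes were. The 3 cumulus markers Has2, Ptx3 and Tnfaip6 were all higher at both times, where 21.9% and 17.5% of all tested genes were. All 3 tested smooth muscle markers were higher at 4 h and none was called at 8 h. Of 9 tested theca and stroma markers, 3 were lower at 4 h and 4 at 8 h. Neither time had a call among the 2 tested oocyte markers or the 1 each of endothelium and leukocytes. The part of these markers in the Hmga1 time course was not tested.

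**Figure D1:**
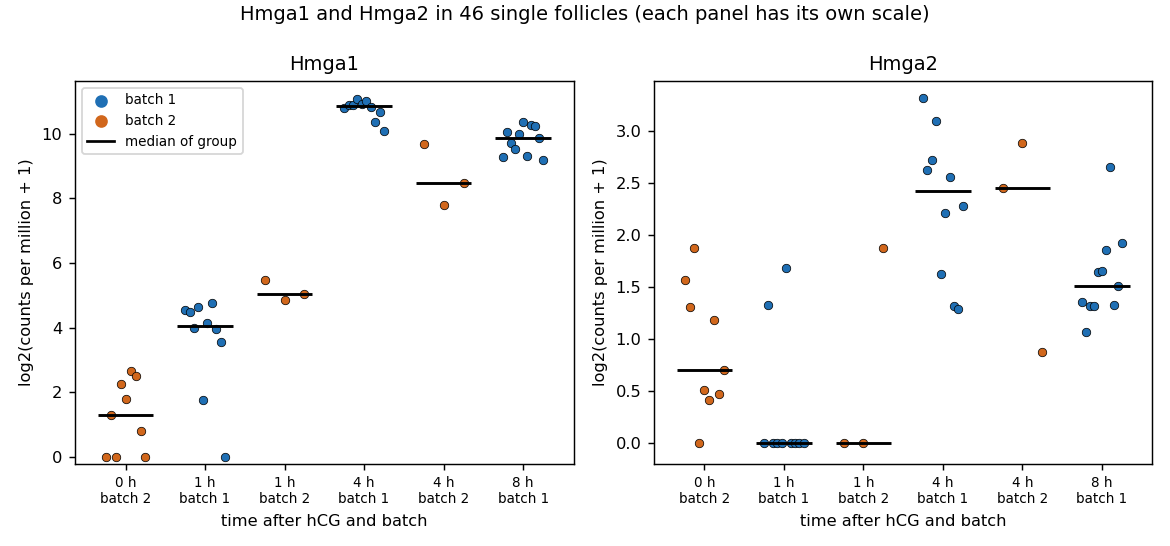
Level of Hmga1 and Hmga2 in each of 46 follicles, as log2(CPM + 1), by hours after hCG and batch. Points are follicles, bars are group medians, and the vertical scale differs between panels. Hmga1 has a median of 1.47 CPM at 0 h, where all follicles are of batch 2. At 4 h its median is 358.0 CPM in batch 2 and 1850 CPM in batch 1, with the 3 batch 2 follicles below all 10 of batch 1. Hmga2 never passes 8.96 CPM.

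On the TPM scale, which corrects for transcript length as well as depth, mean Hmga1 was 1.53 ± 1.63, 18.3 ± 11.8, 1484 ± 676.9 and 982.5 ± 265.5 at the 4 times in order (SD, n = 9, 13, 13 and 11). Its rank among 25122 genes by mean TPM went from 10265 before hCG to 2928, 116 and 167 after it. In a fit with terms for time and batch (edgeR quasi-likelihood), Hmga1 was higher than at 0 h by 2.92 ± 0.54 (log2, SE) at 1 h, 8.97 ± 0.57 at 4 h and 8.28 ± 0.60 at 8 h. Of 8629 genes tested, 10 had a higher fold change at 4 h against 0 h and 9 at 8 h, against 121 at 1 h. The step from 1 h to 4 h was 6.05 ± 0.39, higher in only 14 genes. The authors' deposited table gives Hmga1 folds of 9.38, 677.9 and 436.8 against 0 h at 1 h, 4 h and 8 h. The choice of Hmga1 used these rises, so they carry no test. As background, 34.6% of the tested genes were called at 1 h against 0 h, 54.2% at 4 h, 45.1% at 8 h, 54.8% between 1 h and 4 h, 49.1% between 1 h and 8 h, and 79.8% over all times together (edgeR, adjusted p under 0.05).

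The comparisons with 0 h cross batches, and their size moved with how that was handled. Within batch 2 alone, the log2 difference of Hmga1 from 0 h was 4.06 ± 0.80 at 1 h and 7.83 ± 0.83 at 4 h (SE). Within batch 1 alone the ratio of mean CPM at 4 h to 1 h was 114.9, and within batch 2 alone it was 13.5. The 8 h level could be set against 0 h only across batches.

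**Figure D2:**
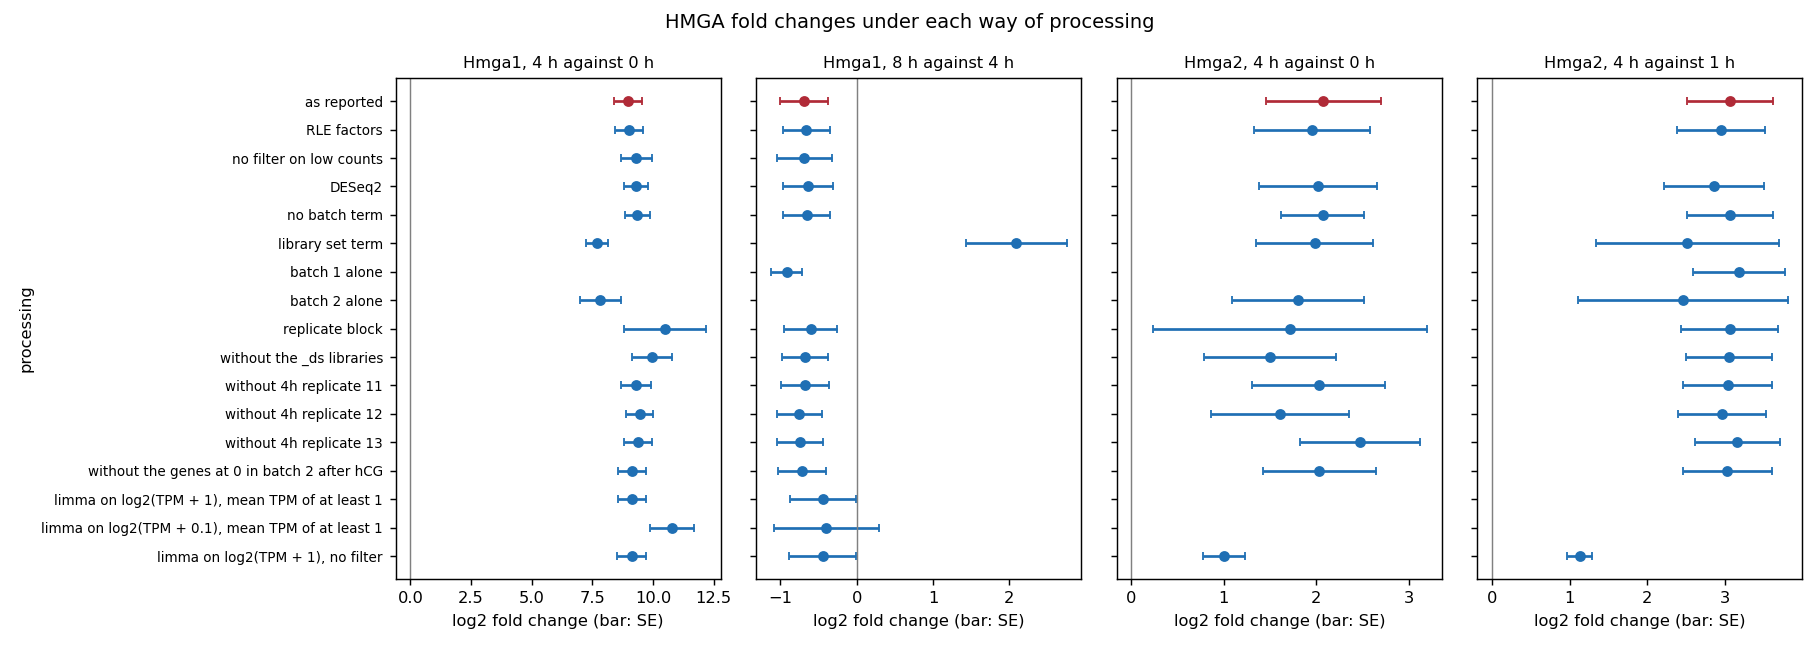
Log2 fold changes (points) with SE (bars) of Hmga1 at 4 h against 0 h and 8 h against 4 h, and of Hmga2 at 4 h against 0 h and against 1 h, by way of processing. The fits that leave out a 1 h follicle are not drawn. Hmga1 at 4 h against 0 h stays between 7.70 and 10.8, Hmga1 at 8 h against 4 h is below 0 except with a term for the library sets (2.09), and Hmga2 keeps its direction in the settings shown.

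The log2 difference of Hmga1 at 8 h from 4 h was -0.69 ± 0.31 (SE), which did not pass the test over all genes (edgeR, adjusted p = 0.0719). Of all genes tested in that comparison, 41.3% were called at an adjusted p under 0.05, and the 4 h follicles used here also entered the choice of Hmga1. A gene chosen for high values at 4 h is favored to be lower at 8 h. No conclusion is therefore drawn from any p-value of this comparison, in any setting. Within batch 1, which held every 8 h follicle, the difference was -0.92 ± 0.21 and passed (adjusted p = 4.3e-04), and it also passed without 4 h replicate 12 (-0.75, adjusted p = 0.0358) or replicate 13 (-0.74, adjusted p = 0.0446). With a term for the 3 library sets in place of batch, which lets 4 h rest on batch 2, the direction turned (2.09 ± 0.66, adjusted p = 0.0236). The adjusted p ranged from 4.3e-04 to 0.759 over 18 alternatives.

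The follicles of the 2 batches did not hold Hmga1 alike, in counts that the authors had already adjusted between batches. At 4 h batch 1 stood 3.77 times above batch 2 by mean CPM, and 3.84 times by mean TPM (1789 ± 384.0 against 466.2 ± 258.3, SD, n = 10 and 3). At 1 h the order was the other way, with batch 2 at 2.27 times batch 1 by mean CPM. The ranges there nearly met: the highest follicle of batch 1 held 26.1 CPM (20 counts) and the lowest of batch 2 held 27.7 CPM (12 counts). The share of all genes whose follicles part by batch was not computed. In a fit of the 26 follicles at 1 h and 4 h, batch 2 minus batch 1 was 1.22 ± 0.41 at 1 h and -1.84 ± 0.39 at 4 h (log2, SE), and the step from 1 h to 4 h differed by -3.06 ± 0.56. The median gene differed between batches by 0.02 at 4 h. This contrast chose Hmga1 and is given without a test. Of 5820 genes, 5.09% were called for the difference of the step (3.20% higher, 1.89% lower in batch 2) and 0.567% for the difference at 1 h, all lower and none (0%) higher in batch 2. At 1 h limma on log2(TPM + 1) called 401 lower and 66 higher, and without a filter 444 lower and 405 higher.

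At 4 h, 10 of 5820 genes were called between the batches (0.172%), every one lower in batch 2 in this fit. Hmga1 is in that count but was chosen by this contrast, so nothing is read from its place there. The other 9 were Slc16a10 (an amino acid transporter), Rgcc, Il7 (a cytokine), Nfkb1 (a subunit of NF-κB), Pim1 (a kinase), Fam110c, Boc, Sgms1 and Aco1, with log2 differences from -3.20 to -1.60. Most calls were also lower with DESeq2 (58 lower, 7 higher). The same held for limma with a filter, on log2(TPM + 1) (9 lower, 2 higher) and log2(TPM + 0.1) (21 lower, 2 higher). The balance turned in limma on log2(TPM + 1) without a filter, with 21 lower and 65 higher. The count rests on single follicles: it was 18 without 4 h replicate 11, 0 without replicate 12 and 3 without replicate 13. Markers of cumulus expansion (Has2, Ptx3 and Tnfaip6, all 3 counted in every group) moved with Hmga1 in part. Their summed level at 4 h had a median of 1415 CPM in batch 1 (388.8 to 4626), and was 1929, 176.9 and 148.7 CPM in batch 2 replicates 11, 12 and 13. The follicle with the highest Hmga1 of batch 2, replicate 11, thus had cumulus markers within the batch 1 range while its Hmga1 was below it. Summed granulosa markers at 4 h ran from 13220 to 36010 CPM in batch 1 and were 52200, 15080 and 14980 CPM in the same 3 follicles. Amh had no count in these batch 2 follicles, so their sums rest on 8 of the 9 granulosa markers. The part of cell makeup in the Hmga1 difference was not tested.

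Follicles of a group held Hmga1 at rather even levels once it was high. The coefficient of variation of CPM was 19.0% at 4 h in batch 1 and 28.5% at 8 h, but 66.7% among the 3 batch 2 follicles at 4 h. At 1 h in batch 1 it was 57.9%, on 109 counts over 10 follicles. The lowest batch 1 follicle at 4 h, replicate 10, was also the shallowest library of the series (241442 counts, 280 of them Hmga1).

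Hmga2 was measured at the edge of detection throughout, and did not pass the filter on low counts. It had 23 counts before hCG and then 4, 97 and 42 in the 3 later groups, with at most 15 in any library. At 0 h its follicles ran from 0 through 0.621 to 2.68 CPM, with 1 of 9 at 0. At 1 h 10 of 13 had none, and 3 counts would equal 2.62 to 10.7 CPM in those libraries, which spans most of the 4 h range. At 4 h every follicle had at least 1 count, from 0.831 through 4.46 to 8.96 CPM, and batch 2 replicates 11, 12 and 13 held 4.46, 6.38 and 0.831 CPM. At 8 h all 11 follicles had counts, from 1.09 through 1.85 to 5.31 CPM. The ranges of all pairs of times overlapped.

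In the fit without a filter (edgeR quasi-likelihood, adjusted over 19925 genes), Hmga2 was higher at 4 h than at 0 h by 2.08 ± 0.62 (log2, SE, adjusted p = 0.00769) and higher at 4 h than at 1 h by 3.06 ± 0.56 (adjusted p = 1.9e-05). At 8 h it was higher than at 1 h by 2.04 ± 0.61 (adjusted p = 0.00858). Such calls were common, at 31.4%, 26% and 25.1% of all genes in these comparisons. The differences at 1 h against 0 h (-0.99 ± 0.77, adjusted p = 0.43), 8 h against 0 h (1.06 ± 0.74, adjusted p = 0.336) and 8 h against 4 h (-1.02 ± 0.43, adjusted p = 0.0989) did not pass, where 19.6%, 23.7% and 17.6% of genes did. The rise from 1 h to 4 h lost its call with a term for library sets (2.52, adjusted p = 0.214) and in batch 2 alone (2.46, adjusted p = 0.406). The rise from 0 h to 4 h lost its call within batch 2 alone (1.80, adjusted p = 0.11), without the 5 libraries at 0 h whose descriptions end in "_ds" (1.50, adjusted p = 0.131) and without 4 h replicate 12 (1.61, adjusted p = 0.103). Within batch 1 alone, the fall from 4 h to 8 h passed (-1.03, adjusted p = 0.0363). The authors' deposited table gives Hmga2 signed folds of -1.78, 4.10 and 2.03 at 1 h, 4 h and 8 h.

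Between the batches Hmga2 showed no difference that this depth could resolve. Batch 2 minus batch 1 was -0.10 ± 0.63 at 4 h and 0.49 ± 1.53 at 1 h (log2, SE), the latter on 1 and 3 counts, and the difference of the step was -0.59 ± 1.66 (edgeR, adjusted p = 1 in each). Among 18351 genes, 1.61% were called for the step, 0.338% at 1 h and 0.0599% at 4 h. Whether Hmga1 and Hmga2 differ in this respect was not tested.

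Per length, Hmga1 had the higher mean level of the 2 members at every time. At 0 h this rests on 49 counts of Hmga1 and 23 of Hmga2. Replicates 1, 3 and 9 there held no Hmga1 count and 0.503, 0.924 and 0.142 TPM of Hmga2, while Hmga1 was the higher in the 6 follicles that had Hmga1 counts. Mean TPM of Hmga1 over that of Hmga2 was 5.29 before hCG (1.53 against 0.288), then 106.6 (18.3 against 0.172), 900.2 (1484 against 1.65) and finally 1149 (982.5 against 0.855). At 4 h batch 1 had a ratio of 1057 and batch 2 of 310.1.

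The other proteins named HMG share little with HMGA beyond the name: HMGB proteins bend DNA with an HMG box, and HMGN proteins bind the nucleosome itself. The genes in the rest of this account come from lists chosen with earlier results of these data known. Their comparisons with 0 h cross batches, and the 4 h against 0 h calls lost within batch 2 alone are given at the end. Of 12 listed genes, 9 were tested, and at 4 h against 0 h 1 rose and 3 fell, where 21.9% of all tested genes rose and 32.2% fell. Their median log2 change was -0.53, beside -0.12 for all 8629 genes. Hmgxb3 rose by 0.70 ± 0.19 (edgeR, adjusted p = 0.00168). Those that fell were Hmgxb4 (-1.80, adjusted p = 1.1e-04), Hmgb2, a protein of dividing cells (-1.39, adjusted p = 0.00467), and Hmg20b, which associates with a histone demethylase complex (-1.27, adjusted p = 4.5e-04). Hmgb1 (-0.06), Hmgb3 (0.60), Hmgn1 (-0.30), Hmgn2 (-0.53) and Hmgn3 (-0.83) did not pass, though Hmgb3 passed as higher in 6 of 18 alternatives and Hmgn3 as lower in 2.

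These genes were more even in level than Hmga1, which was chosen for its rise, so nothing is read from that. Hmgb1, the abundant nuclear protein that also acts as an alarm signal outside cells, had mean TPM of 285.9 ± 77.45, 451.3 ± 77.86, 406.7 ± 64.95 and 407.0 ± 53.86 at 0, 1, 4 and 8 h (SD). Mean Hmga1 stood below mean Hmgb1 at 1 h and above it at 4 h. At 4 h, batch 2 replicates 11, 12 and 13 held 751.7, 248.8 and 398.0 TPM of Hmga1. In a limma fit of log2(TPM + 1), which differs in scale, tool and genes tested, the median gene was at 0.15 and not -0.12 at 4 h against 0 h, and Hmgb1 passed as higher (0.56, limma, adjusted p = 0.0032). The share of calls that were rises went from 40.5% to 57.1% at 4 h, from 35.9% to 48.3% at 1 h and from 38.8% to 63.3% at 8 h against 0 h. Against 1 h it went from 47.3% to 63% at 4 h and from 47.3% to 69.9% at 8 h. On counts without the 3332 genes at 0 in batch 2, the median at 4 h against 0 h was 0.02 and the share 49%. Hmgb1 fell from 1 h to 4 h in the count fit (-0.31 ± 0.11, edgeR, adjusted p = 0.02). In that step 26% of genes rose and 28.9% fell. Hmgb3 rose from 1 h to 4 h (1.04 ± 0.25, edgeR, adjusted p = 4.0e-04), but not with a term for library sets (0.18, adjusted p = 0.838) or in batch 2 alone (0.21, adjusted p = 0.826). Hmgn3 rose from 4 h to 8 h (2.13 ± 0.37, edgeR, adjusted p = 6.4e-06), a call lost with library sets (0.84, adjusted p = 0.68). At 8 h against 4 h 2 of the 9 rose and 3 fell, where 19.8% and 21.6% of all genes did. At 1 h against 0 h none rose and 1 fell (12.4% and 22.2% of all genes), and at 8 h against 0 h none rose and 4 fell (17.5% and 27.6%), among them Hmgb2 (-1.78, adjusted p = 0.00293) and Hmgxb4 (-1.74, adjusted p = 0.00131). At 8 h against 1 h 1 rose and 3 fell (23.2% and 25.9%).

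**Figure D3:**
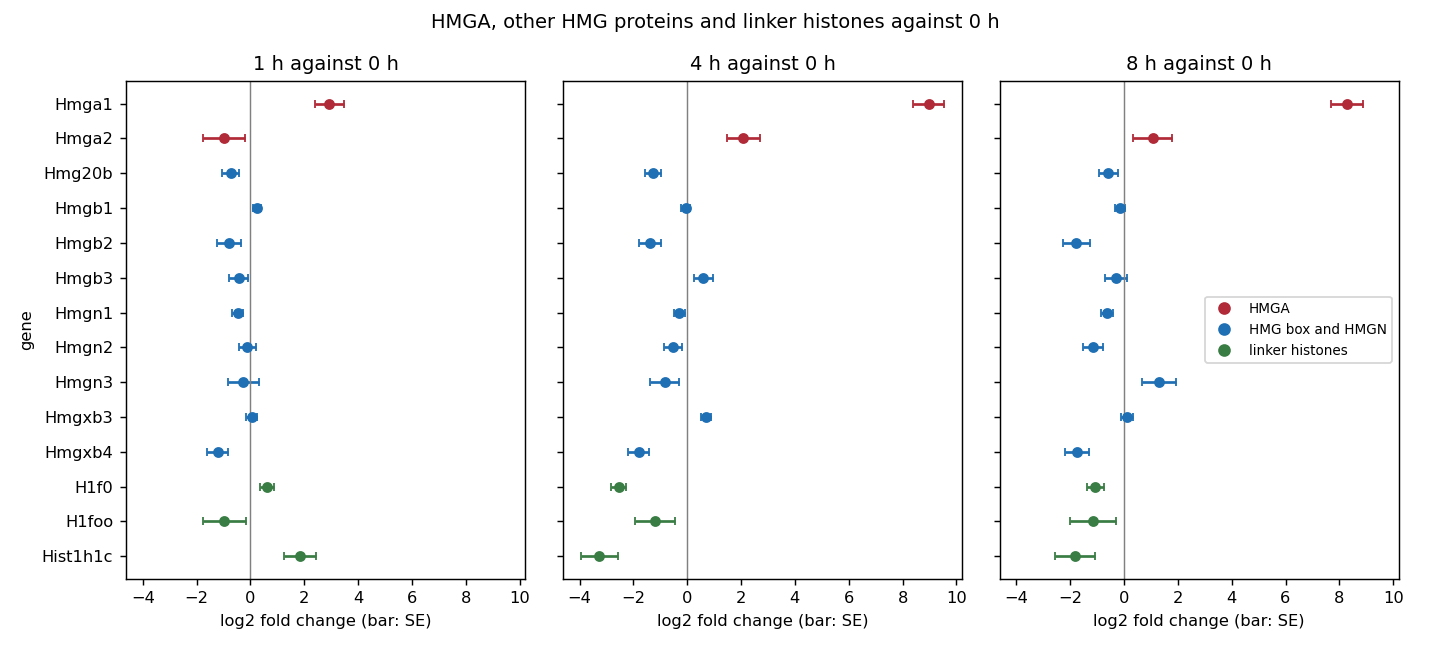
Log2 fold changes against 0 h (points, with SE as bars) of the HMGA members, the tested HMG box and HMGN genes, and the tested linker histones, at 1, 4 and 8 h after hCG. Hmga1 lies at 8.97 at 4 h and every other gene shown lies between -3.27 and 2.08, and Hmga2 comes from the fit without a filter on low counts.

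Linker histones close the turn of DNA on the nucleosome, at sites for which HMGA proteins compete. Of 16 listed symbols, 9 were in the tables and 3 were tested. H1f0, the replacement H1 of resting cells, had mean levels of 103.1 ± 34.5, 170.0 ± 68.7, 19.0 ± 6.01 and 53.6 ± 11.97 CPM at 0, 1, 4 and 8 h (SD, n = 9, 13, 13 and 11). The log2 difference of H1f0 at 1 h from 0 h did not pass (0.62 ± 0.27, SE, edgeR, adjusted p = 0.0695), though it passed as higher in 10 of 18 alternatives. It fell from 1 h to 4 h by 3.16 on the log2 scale (SE 0.20, edgeR, adjusted p = 6.5e-18) and rose by 1.46 ± 0.21 from 4 h to 8 h (adjusted p = 1.7e-07). With library sets the latter was 0.40 and lost its call (adjusted p = 0.552). Hist1h1c rose from 0 h to 1 h (1.84 ± 0.59, adjusted p = 0.0124) and fell from 1 h to 4 h (-5.12 ± 0.51, adjusted p = 5.9e-12), on a mean of at most 10.7 CPM. The rise of Hist1h1c lost its call in 3 of 18 alternatives. They included batch 2 alone (1.90, edgeR, adjusted p = 0.0822), the only fit of 0 h within 1 batch, and the fit without 1 h replicate 11 (1.68, adjusted p = 0.1). Transcripts of replication-dependent histones mostly lack the poly(A) tail by which these libraries were made. The oocyte's own linker histone, H1foo, did not pass at any step. At 4 h against 0 h, 2 of the 3 fell (H1f0 -2.54, Hist1h1c -3.27) and none rose, with H1foo at -1.21, where 32.2% of all tested genes fell and 21.9% rose.

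LIN28 proteins block the maturation of let-7, and let-7 represses Hmga2 and Hmga1. Lin28a had 3, 0, 2 and 2 counts and Lin28b 1, 1, 0 and 10 counts at 0, 1, 4 and 8 h, too few to test. Of the 20 listed genes of this axis, 10 were tested, and at 4 h against 0 h 3 rose and 4 fell (median -0.18), near the 21.9% and 32.2% of all tested genes and their median of -0.12. Nr6a1, a nuclear receptor and let-7 target, rose by 1.18 ± 0.35 (edgeR, adjusted p = 0.0042), Dgcr8, the partner of Drosha, by 0.97 ± 0.27 (adjusted p = 0.00178), and Ago2, which carries the microRNA, by 0.76 ± 0.23 (adjusted p = 0.00428). Dis3l2, which degrades let-7 precursors (-2.23, adjusted p = 9.1e-09), Zcchc11, which adds uridines to them (-2.03, adjusted p = 1.6e-06), Mycn (-1.90, adjusted p = 8.5e-05) and Drosha, which cuts primary microRNAs (-1.76, adjusted p = 3.8e-04), fell. Dicer1 (-0.35), Xpo5 (0.15) and Zcchc6 (-0.01) did not pass. Trim71, another let-7 target, held 758 counts at 0 h, spread unevenly over follicles (31.1 ± 47.03 CPM, SD, n = 9), and 1, 1 and 2 counts later, and was not tested.

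HMGA1 is best known for helping NF-κB, AP-1 and interferon regulatory factors assemble on the interferon beta enhancer. Of 10 listed partners 9 were tested, with 1 higher and 3 lower at 4 h against 0 h (median -0.12), near the 21.9% and 32.2% of all tested genes. Nfkb1 rose by 3.42 ± 0.68 at 1 h (edgeR, adjusted p = 1.2e-04) and 4.08 ± 0.70 at 4 h (adjusted p = 3e-06), and was one of the genes lower in batch 2 at 4 h (22.3 CPM in batch 1, 4.08 CPM in batch 2). With library sets its rise at 4 h was smaller, at 2.13. Jun, an AP-1 subunit, rose at 1 h (2.20 ± 0.33, adjusted p = 1e-06) and was below its 0 h level at 4 h (-1.62 ± 0.34, adjusted p = 8.3e-05). Kat2b, an acetyltransferase that modifies HMGA1 (-4.31, adjusted p = 3.8e-08), and Atf2 (-0.70, adjusted p = 0.00309) fell. Crebbp (0.11), Ep300 (-0.01), Irf1 (-0.49), Irf3 (0.16) and Rela (-0.12) did not pass. By limma on log2(TPM + 1) Crebbp passed as higher (0.70, adjusted p = 0.00277).

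Kinases that phosphorylate HMGA proteins loosen their hold on DNA. Of 4 tested, the casein kinase 2 subunit Csnk2b rose (0.67 ± 0.20, edgeR, adjusted p = 0.00371) and Hipk2 fell (-0.63 ± 0.26, adjusted p = 0.0416) at 4 h against 0 h, while Cdk1 (-0.36) and Csnk2a1 (-0.37) did not pass. Over all tested genes 21.9% rose and 32.2% fell. The fall of Hipk2 kept its call in 5 of 18 alternatives and turned direction in 3.

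Genes reported as regulated by HMGA in other cells were mixed. Of 12 listed 5 were tested, and at 4 h against 0 h 2 rose and 2 fell (median 0.31), where 21.9% and 32.2% of all tested genes did. Ptgs2, the prostaglandin synthase required for ovulation, rose by 12.91 ± 0.93 (edgeR, adjusted p = 2.4e-16) and Stat3 by 1.88 ± 0.30 (adjusted p = 9.1e-07). The cyclins Ccnb2 (-2.86, adjusted p = 3e-07) and Ccna2 (-1.13, adjusted p = 0.00923) fell, and Insr, the insulin receptor, did not pass (0.31) except by limma on log2(TPM + 1) (0.86, adjusted p = 0.0127).

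The genes whose order over the 46 follicles was most like that of Hmga1, among the 6753 genes compared, were Fam110c (Spearman rho 0.954), Ier3, an immediate early gene (0.946), Ptgs2 (0.942), Hccs, the enzyme that attaches heme to cytochrome c (0.939), and Hs3st1, a heparan sulfate sulfotransferase (0.933). The follicles share their time groups and batches, which carry most of that order. With the mean of each time and batch taken out, rho was 0.547 for Fam110c, 0.486 for Ptgs2, 0.37 for Hccs, 0.364 for Ier3 and 0.268 for Hs3st1, where the median gene had 0.035 and 2.5% of genes lay above 0.382. The 5 genes were picked on values that include these deviations, which favors them over that background, so nothing is read from their place in it. Fam110c was the one of the 5 that was called lower in batch 2 at 4 h, with 612.9 CPM in batch 1 and 152.2 CPM in batch 2. Of 5820 genes 0.172% were called there. A gene picked for its likeness to Hmga1 is favored to share that difference, so nothing is read from this call. Fam110c parted from Hmga1 at 8 h, where it had fallen to 117.2 CPM and Hmga1 was at 927.1 CPM. By Pearson correlation the nearest gene was Runx1 (0.969). The genes with the most opposite order were Commd3 (-0.893) and Dap (-0.891).

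**Figure D4:**
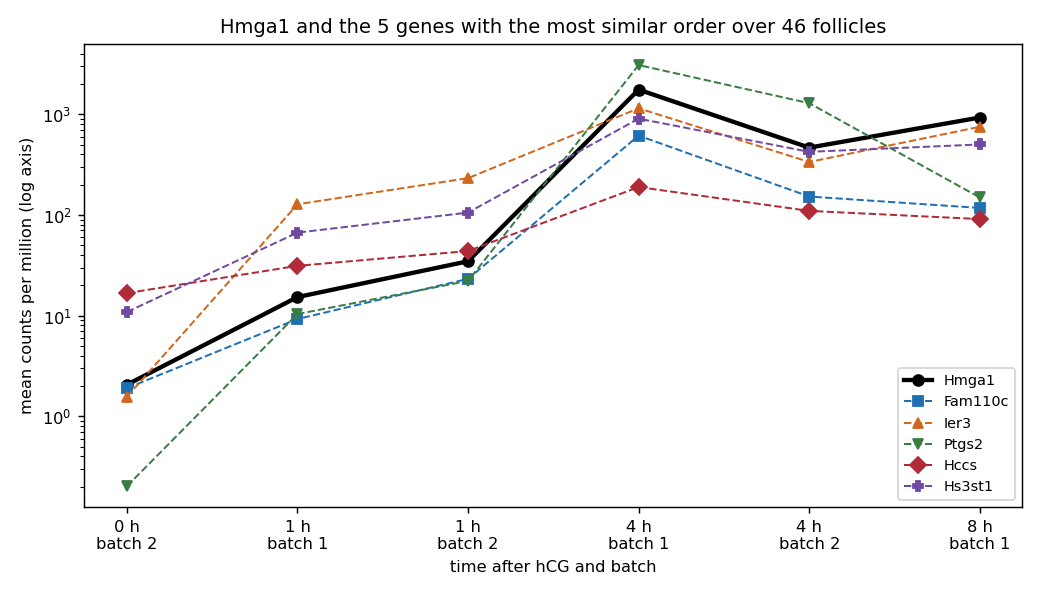
Mean CPM on a log axis of Hmga1 (thick line) and of the 5 genes with the most similar order over 46 follicles, by time and batch. All 6 are lowest at 0 h and highest in batch 1 at 4 h, and at 8 h Hmga1 keeps 927.1 CPM while Ptgs2 is at 148.9 CPM and Fam110c at 117.2 CPM.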

How the data were processed

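RNA of 46 single follicles was sequenced as Smart-Seq2 and Nextera XT libraries, per the labels' protocols. The submitters' processing notes name HISAT2, GRCm38, Partek and DESeq2. The gene counts were adjusted between batches with ComBat-seq by the authors before deposit, with settings not given in the sources used here, and the deposited TPM values (transcripts scaled by length and depth) were made from those counts. The authors' deposited comparison table gives, per its header, p-values (not used), signed fold changes, treated here as a score, and a normalized signal of total counts (not used). A further 10 columns of each table had names that fit no sample of the labels and were left out.

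Counts were normalized by TMM and fitted with edgeR 4.0.16 (quasi-likelihood, R 4.3.3) after filterByExpr, with time and batch as terms, and Benjamini-Hochberg adjustment over all 8629 genes tested. The 26 follicles at 1 h and 4 h were fitted apart for the batch differences (5820 genes). Hmga2 failed the filter and was taken from the fit without it (19925 genes). The common biological coefficient of variation was 34%. CPM, counts scaled to a common library size, used TMM factors. Alternatives used DESeq2 1.42.0 and limma 3.58.1 (on log2 of TPM plus 1 or 0.1, mean TPM of at least 1). The fits were tested on simulated data. The members and the gene lists were chosen with earlier results of these data known. Genes most like Hmga1 were the 5 with the highest Spearman rho over all follicles among genes with a mean log2 CPM (prior count 2) of 3 or more, provisional names left out. In each list the rule named up to 3 rises and 3 falls of largest size and the members of any count of 5 or fewer. Runx1, the most opposite genes and the values of Hmgb1 outside 4 h against 0 h were added after their values were seen. How reads that match several places in the genome were counted is not given in the sources used here. Some genes that the rule names are not reported here.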

Additional observations from a re-analysis of the deposited data

How the results depend on the processing

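Each rise of Hmga1 kept its direction under every alternative that could be fitted, and the size moved. With a term for library sets, Hmga1 was 7.70 and 9.80 above its 0 h level at 4 h and 8 h, 3.72 above 1 h at 4 h and, with the direction turned, 2.09 higher at 8 h than at 4 h, and Hmga2 at 4 h against 1 h was 2.52 (adjusted p = 0.214). In batch 2 alone Hmga1 changed by 4.06 at 1 h and 7.83 at 4 h against 0 h and 3.77 at 4 h against 1 h, and Hmga2 by 1.80 and 2.46 at 4 h against 0 h and 1 h (adjusted p = 0.11 and 0.406). In batch 1 alone 8 h against 4 h was -0.92 for Hmga1 and -1.03 for Hmga2. Without the "_ds" libraries Hmga1 was 9.97 and 9.29 at 4 h and 8 h against 0 h, and Hmga2 1.50 at 4 h. On log2(TPM + 0.1) Hmga1 was 10.80 and 10.40 at 4 h and 8 h against 0 h and 6.43 at 8 h against 1 h, and its step differed by -4.20 between batches. For Hmga1, 8 h against 4 h, leaving out 1 batch 2 follicle at a time gave -0.75 to -0.67. For Hmga2 it gave 1.61 to 2.47 at 4 h against 0 h, -1.43 to 2.22 for the difference of the step, -2.36 to 1.33 for the batches at 1 h and -0.63 to 0.32 at 4 h. The 3 batch contrasts of Hmga2 thus turned direction without 1 follicle. The cause of these changes was not tested.

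The replicate numbers did not pair the follicles: deviations of 62 same-numbered pairs had a median correlation of -0.005 (-0.202 to 0.245). With the replicate block Hmga1 was 4.41, 10.49 and 9.88 at 1 h, 4 h and 8 h against 0 h, Hmga2 was 1.72 at 4 h (adjusted p = 0.7), and Hist1h1c turned to 0.90. The call of Nfkb1 at 1 h was lost (adjusted p = 0.0677). Calls fell to 355, 1479 and 852 genes.

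On log2(TPM + 1), with or without a filter, Ep300 (0.49), Hipk2 (0.066), Hmgb1 (0.56) and Zcchc6 (0.50) turned direction at 4 h against 0 h, and on log2(TPM + 0.1) so did Hipk2 (0.082), Hmgb1 (0.56) and Zcchc6 (0.54). Of the list calls, Ccna2 was lost in 7 of 18 alternatives, and Atf2, Hmg20b and Hmgb2 in 5 each. Within batch 2 alone, 4 h against 0 h calls were lost, with direction kept, for Atf2 (edgeR, adjusted p = 0.174), Ccna2 (0.09) and Csnk2b (0.0583). Those of Drosha (0.0971), Hist1h1c (0.0531) and Hmgb2 (0.0528) were lost there too. A sign change of a list gene that passed in neither fit was counted as no change. Counts of called genes that moved by over 1.5 times were 2054 (against 4733) at 4 h against 1 h and 1446 (against 3567) at 8 h against 4 h with library sets, and 1879 (against 2985) and 1242 (against 4733) at 1 h against 0 h and 4 h against 1 h in batch 2 alone. For the step it was 492 with DESeq2 (against 296). Between batches at 1 h (33) it was 62 without a filter, 31 to 108 without 1 follicle (108 and 59 without 1 h replicates 11 and 12), and 467, 723 and 849 by limma, and at 4 h (10) it was 65 with DESeq2, 0 to 18 without 1 follicle, and 23 and 86 by limma. Depth limits Hmga2, which had at most 15 counts in a library.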
